A study of Mus musculus with 24 samples.

Results

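The genes described here encode potassium channels of mouse brain and the auxiliary subunits that travel with them. They were chosen by a list of 42 symbols covering voltage-gated, inward-rectifier, tandem-pore and calcium- or sodium-activated channels, matched to the Ensembl IDs of the count tables, and 41 of the 42 were found among 37621 features. The ID of Kcnj11 was not matched and the gene was not analysed here. Poly(A)-selected RNA had been sequenced from 4 dissected brain regions, the cerebellum, the cortex, the hippocampus and the olfactory bulb, of mice lacking Cdr1as (KO) and of wild-type mice (WT), all C57BL/6 per the labels, with 3 libraries for each of 8 groups. The labels give no age, no treatment and no detail of the deletion, and they do not say whether the 3 libraries of a group are separate animals, so each p-value reflects only how far these libraries vary, which may be technical.

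Potassium channels let potassium ions leave a neuron or glial cell and so pull the membrane back toward rest. Voltage-gated channels of the Kv1 to Kv4 families shape the action potential, the EAG-related and Kv7 families oppose slow depolarisation, and inward rectifiers and tandem-pore (K2P) leak channels set the resting potential. Auxiliary subunits, the Kv-beta proteins for Kv1 and the KChIP proteins for Kv4, change how fast the pore subunits inactivate and how many reach the membrane. Neuron types differ in which of these genes they use: fast-spiking cells are known for Kv1 and Kv3 channels, and astrocytes for the inward rectifier Kcnj10. Cdr1as is a circular RNA with many binding sites for the microRNA miR-7, and the study asked what the brain transcriptome looks like without it.

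Libraries held 21068566 to 40472007 gene counts, and in the olfactory bulb the KO libraries, with 33770965 to 40472007, were deeper than the WT ones, with 21068566 to 27168999. The feature that covers the targeted locus lay between 0.115 and 1.95 CPM (counts scaled to the library's total) in KO libraries, against 2.23 to 29 CPM in WT libraries. Region markers followed the labels: the cerebellar receptor gene Gabra6 had 740 to 865 CPM in cerebellum and at most 0.178 CPM elsewhere. Markers of neighbouring tissue varied between libraries. The choroid plexus gene Ttr had 323, 1173 and 583 CPM in KO and 1851, 2157 and 3.49 CPM in WT cerebellum, and 6.66 to 13 CPM in KO against 2261, 6.78 and 2992 CPM in WT hippocampus. Tcf7l2, a thalamic transcription factor, had 30 CPM in KO cerebellum number 1 and 45.1 CPM in WT cerebellum number 1, against 5.49 to 6.08 CPM in the other cerebellar libraries, and the striatal receptor gene Drd2 had 21.8 to 44.3 CPM in cortex and at most 5.74 CPM elsewhere. In whole tissue, fewer cells of a type and less RNA per cell cannot be told apart.

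All 41 genes had enough counts to be tested in every comparison, and levels are given per length, as counts per kilobase of merged exons after scaling each library's depth by the trimmed mean of M values (RPKM). Averaged over the 8 groups the highest levels were those of Kcnab2 (77.7 RPKM), Kcnj10 (61.5), Kcna1 (58.7), Kcnk1 (54.1), Kcnj4 (47.9) and Kcnip2 (46.1). The lowest were Kcnk9 (0.922 RPKM), Kcnb2 (0.617) and Kcnn3 (0.482). Summed over the 41 genes, the level was 836 ± 5.33 RPKM in KO cerebellum and 826 ± 5.13 in WT cerebellum, 833 ± 45.4 in KO and 821 ± 14.8 in WT cortex, 762 ± 20.8 in KO and 744 ± 37.6 in WT hippocampus, and 787 ± 17.5 in KO and 754 ± 28.6 in WT bulb (SD, n = 3 each). The sums therefore spanned a narrow band across the regions, while single genes spanned a wide one. Kcnj4 differed 278-fold between its highest and lowest group, Kcnq5 55.8-fold and Kcnip2 55.1-fold, whereas Kcnj3, a subunit of the G-protein-gated inward rectifiers, differed 1.37-fold.

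**Figure D1:**
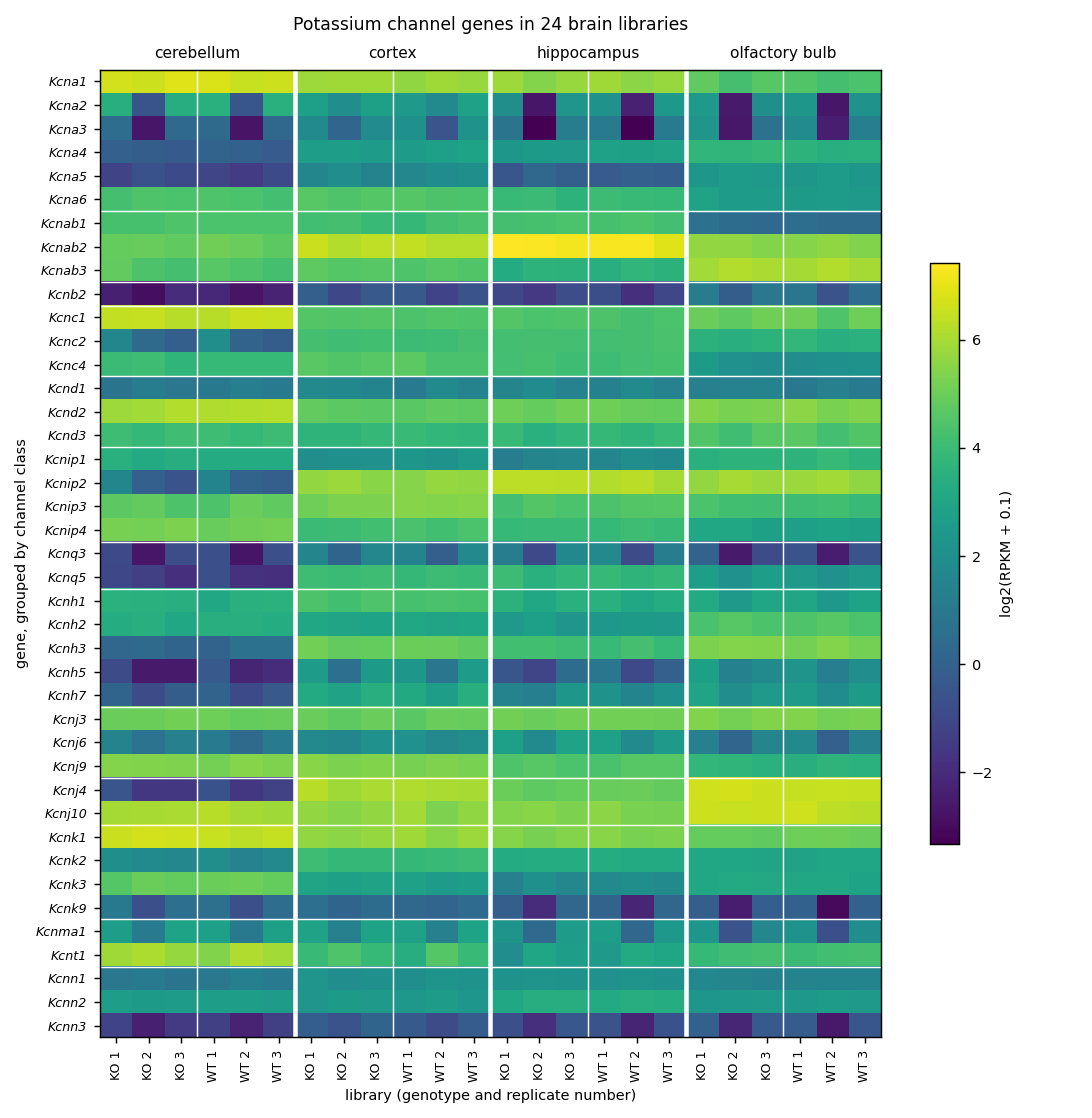
Levels of the 41 potassium channel genes in 24 libraries, as log2(RPKM + 0.1), with one row per gene grouped by channel class, and one column per library, KO left of WT within each region. Rows differ mainly between regions (Kcnj4 is dark in the cerebellum and bright in the bulb), KO and WT blocks of a region look alike, and a few rows such as Kcna2 and Kcna3 are dark in the columns numbered 2.

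Which of these genes set the regions apart was tested in WT libraries, each region against the mean of the other 3. An adjusted p under 0.05 (edgeR quasi-likelihood F test, Benjamini-Hochberg over all genes tested) was taken as a difference, so that higher or lower in a region means above or below the mean of the other 3 and not above or below each of them. In the cerebellum 12 of the 41 genes were higher and 15 lower, beside 27.5% of all tested genes higher and 26.9% lower. In the cortex 19 were higher and 8 lower, beside 21.8% and 17.6% of all genes. In the hippocampus 13 were higher and 11 lower, beside 17.7% and 15.3%. In the olfactory bulb 14 were higher and 12 lower, beside 22% and 21.6%. A larger share of the channel genes than of all genes thus differed in each region of WT tissue, and that excess was not tested. The median log2 of the 41 genes was -0.09, 0.58, -0.04 and -0.13, beside 0.02, -0.0047, -0.02 and 0.0096 over all genes. In all, 34 of the 41 genes differed in at least 1 region; the exceptions were Kcna2, Kcna3, Kcnd1, Kcnk9, Kcnma1, Kcnn3 and Kcnq3. With the replicate number as a block, 5 of these 7 passed in some region: Kcnn3 in the cerebellum (log2 -1.06, adjusted p = 0.0331), Kcna3 (log2 1.57, adjusted p = 0.00777) and Kcnq3 (log2 1.99, adjusted p = 3.42e-05) in the cortex, Kcnd1 in the hippocampus (log2 0.30, adjusted p = 0.00969) and Kcnma1 in the bulb (log2 -0.96, adjusted p = 0.00558). The shares of all genes that passed with the block in these regional comparisons are not given here.

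By mean WT level, 10 genes were highest in the cerebellum (Kcna1, Kcna2, Kcnab1, Kcnc1, Kcnd2, Kcnip4, Kcnj9, Kcnk1, Kcnk3 and Kcnt1) and 14 in the cortex (Kcna3, Kcna6, Kcnc4, Kcnh1, Kcnh5, Kcnh7, Kcnip3, Kcnk2, Kcnk9, Kcnma1, Kcnn1, Kcnn3, Kcnq3 and Kcnq5). The hippocampus was highest for 6 genes (Kcnab2, Kcnc2, Kcnd1, Kcnip2, Kcnj6 and Kcnn2) and the bulb for 11 (Kcna4, Kcna5, Kcnab3, Kcnb2, Kcnd3, Kcnh2, Kcnh3, Kcnip1, Kcnj10, Kcnj3 and Kcnj4). The highest region differed from the second for 19 of the 41 genes in WT tissue (edgeR, adjusted p under 0.05), and for 22 it did not. The same comparisons in KO libraries gave 11 genes higher and 14 lower in the cerebellum (61% of the channel genes, beside 61.2% of all genes), 19 and 9 in the cortex (46.3% of all genes), 14 and 13 in the hippocampus (41.5%) and 14 and 11 in the bulb (48.3%). Of the genes that differed in WT tissue, 24 of 27 also differed in the same direction in KO cerebellum, 26 of 27 in cortex, 24 of 24 in hippocampus and 25 of 26 in bulb, beside 92.3%, 88.5%, 87.1% and 88.8% of all genes that differed in WT tissue, and 0 channel genes differed in opposite directions in the 2 genotypes. The KO and WT libraries of these comparisons are separate samples. The region with the highest mean level was the same in both genotypes for 37 of the 41 genes.

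**Figure D2:**
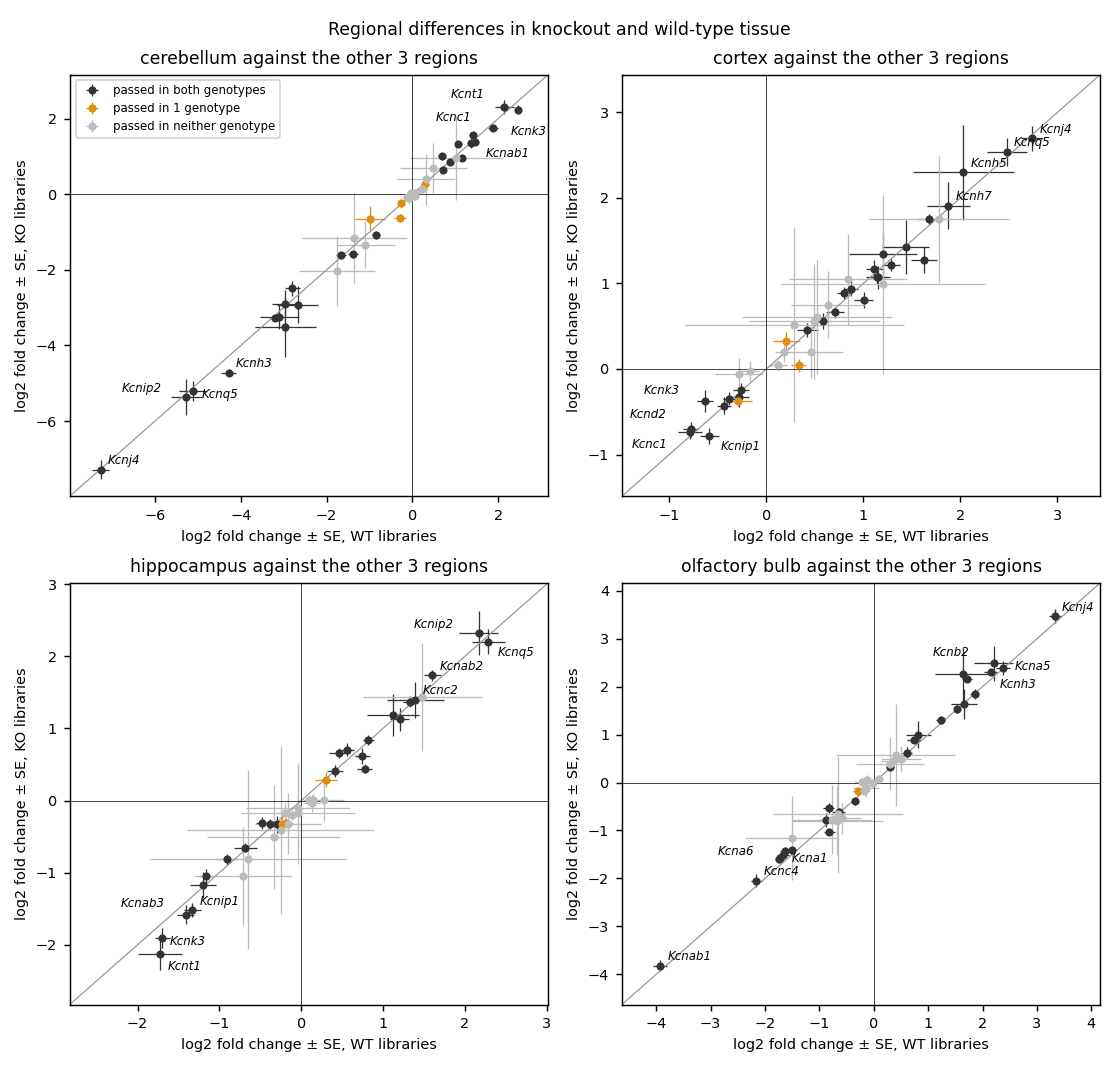
Log2 fold change of each potassium channel gene in one region against the mean of the other 3, with KO libraries on the vertical and WT libraries on the horizontal axis (points with ± SE, n = 3 libraries per region and genotype; the grey line marks equal values). Most points lie near the line, from Kcnj4 at -7.29 in KO and -7.27 in WT cerebellum to Kcnj4 at 3.47 in KO and 3.33 in WT bulb, and the grey points with long bars are genes that passed in neither genotype.

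Among the listed Kv1 pore subunits, which sit in axons and near nerve terminals, Kcna1 led every region. In the cerebellum it had 103, 98 and 119 RPKM in KO and 112, 91.9 and 97.7 RPKM in WT libraries, and in the bulb 28, 19.2 and 24.9 in KO and 22.9, 18.9 and 20.6 in WT libraries. All cerebellar libraries lay above all others and all bulb libraries below all others, while cortex (49.6 to 59.8) and hippocampus (42.2 to 59.4) overlapped. It made up 78.2 ± 2.16% of the summed level of the listed Kv1 genes in KO and 77.2 ± 2.75% in WT cerebellum. In the bulb its share was 44 ± 0.597% in KO and 43.2 ± 2.08% in WT tissue. Its bulb level differed from the other regions (log2 -1.67, SE 0.11, adjusted p = 1.81e-07). Kcna4, a subunit that gives fast-inactivating current, ran the other way. It averaged 13.4 ± 0.577 RPKM in KO and 11.3 ± 0.858 in WT bulb, and 0.799 ± 0.078 in KO and 0.882 ± 0.12 in WT cerebellum. Kcna5, better known from heart muscle and blood vessels, was also highest in the bulb (log2 2.38, SE 0.13, adjusted p = 3.73e-08), where it reached 5.5 ± 0.476 RPKM in KO and 5.31 ± 0.545 in WT tissue. Kcna6 was lowest there (log2 -1.74, SE 0.085, adjusted p = 1.53e-08), at 6.36 ± 0.788 RPKM in KO and 5.67 ± 0.194 in WT bulb, and highest in the cortex, at 23.7 ± 1.38 and 22 ± 1.85. The neighbouring levels of cortex and cerebellum did not separate for Kcna6 (WT, adjusted p = 0.319).

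The Kv-beta subunits, cytoplasmic partners of Kv1 channels, exchanged places between regions. Kcnab2 was highest in the hippocampus, with 171, 164 and 151 RPKM in KO and 160.0, 157 and 117 in WT libraries against 26.4 to 94.6 elsewhere (log2 1.6, SE 0.1, adjusted p = 3.08e-07). No other library reached these hippocampal values. It held 83.9 ± 1.67% of the summed Kv-beta level in KO and 81.9 ± 2.41% in WT hippocampus. In the bulb the larger share was that of Kcnab3, at 57.6 ± 3.21% in KO and 58.7 ± 0.969% in WT tissue, with 66.9 ± 5.08 and 65.9 ± 5.96 RPKM, and in the hippocampus it was below the mean of the other 3 regions (log2 -1.41, SE 0.1, adjusted p = 7.43e-07). Kcnab1, which speeds inactivation, had 1.53, 1.3 and 1.19 RPKM in KO and 1.36, 1.22 and 1.22 in WT bulb, and between 14.2 and 21.8 RPKM in every library of the other 3 regions (log2 -3.93, SE 0.12, adjusted p = 5.29e-10). Its bulb libraries thus did not overlap with any other, and its cerebellar value passed as higher (log2 1.45, SE 0.089, adjusted p = 6.01e-08), with cerebellum, hippocampus and cortex not separated from their neighbours (WT, adjusted p = 0.563 and 0.502). Kcnab2 shares 125 exonic bases with Gm16334 on the same strand, and Kcnab3 shares 147 with the antisense gene Kcnab3os. Kcnh7 (696 bases), Kcnip4 (267), Kcnk3 (229), Kcnd3 (165), Kcnn1 (132) and Kcnh3 (1) also share exonic bases with genes on the opposite strand. Part of the counts of all these genes is therefore uncertain. Whether the counting used strand is not stated.

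Kv3 channels allow fast repolarisation and high firing rates. Kcnc1 was the highest of the 3 listed Kv3 genes in the cerebellum, with 85.3, 89.7 and 76.8 RPKM in KO and 76.5, 93.8 and 90.2 in WT libraries, against 18.9 to 34.3 in the other regions (log2 1.88, SE 0.11, adjusted p = 4.41e-08). It made up 83.2 ± 1.35% of the summed level of those genes in KO and 84.1 ± 2.93% in WT cerebellum, and 37.5 ± 1.92% in KO and 35.2 ± 2.2% in WT hippocampus. In the cortex it was below the mean of the other 3 regions (log2 -0.79, SE 0.13, adjusted p = 0.000459), and cortex and hippocampus did not separate (WT, adjusted p = 0.773). Kcnc2, known from fast-spiking interneurons, was low in the cerebellum, with 2.94, 1.22 and 0.86 RPKM in KO and 3.83, 0.975 and 0.794 in WT libraries, against 10.6 to 20.3 elsewhere. Its highest cerebellar value in each genotype came from library number 1, the one with the high Tcf7l2, and the part of thalamic tissue in it was not tested. Kcnc2 passed as higher in the hippocampus (log2 1.39, SE 0.35, adjusted p = 0.0115), but not when the libraries numbered 2 were left out (log2 1.27, adjusted p = 0.102). For Kcnc2 the hippocampus did not separate from the cortex (WT, edgeR, adjusted p = 0.897). Kcnc4 had 4.55 ± 0.991 RPKM in KO and 4.03 ± 0.262 in WT bulb against group means of 14.4 to 24.2 RPKM elsewhere (log2 -2.16, SE 0.1, adjusted p = 1.41e-08). Kcnb2, the listed Kv2 gene, was sparse, with group means of 0.0956 to 1.6 RPKM. It was higher in the bulb (log2 2.2, SE 0.36, adjusted p = 0.000486), without separating from the cortex (WT, edgeR, adjusted p = 0.067).

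Kv4 channels carry the transient current of dendrites, and KChIP proteins are their calcium-binding partners. Kcnd2 led its family in every region, with 78 ± 1.9% of the summed Kv4 level in KO and 80.1 ± 0.932% in WT cerebellum, and in the cortex it was below the mean of the other 3 regions (log2 -0.78, SE 0.078, adjusted p = 1.24e-05), without separating from the hippocampus (WT, adjusted p = 0.145). Kcnd3 averaged 21.5 ± 3.77 RPKM in KO and 22.2 ± 3.49 in WT bulb, its highest region, and Kcnd1 stayed between 1.88 and 3.05 RPKM in all group means. Among the KChIP partners the leading gene was not the same in each region. Kcnip2 had 80.8, 81.9 and 79.8 RPKM in KO and 72.9, 79.9 and 63.5 in WT hippocampus, and 2.96, 0.877 and 0.566 in KO and 2.74, 0.974 and 0.859 in WT cerebellum (log2 -5.27, SE 0.36, adjusted p = 3.82e-07). The cerebellar libraries did not overlap with any other, and their highest value in each genotype again came from number 1. Kcnip2 supplied 67.9 ± 1.59% of the summed KChIP level in KO and 63.3 ± 2.83% in WT hippocampus. In the cerebellum Kcnip4 supplied 50.5 ± 3.97% in KO and 47 ± 1.95% in WT tissue, and Kcnip3, also known as the transcriptional repressor DREAM, 33.9 ± 4.27% and 37.2 ± 3.85%. Kcnip1, a subunit known from interneurons, was highest in the bulb, lower in the cortex (log2 -0.59, SE 0.1, adjusted p = 0.000595) and lowest in the hippocampus (log2 -1.33, SE 0.1, adjusted p = 1.23e-06). Kcnip2 was above the mean of the other 3 regions in the hippocampus (log2 2.2, SE 0.24, adjusted p = 3.4e-05), but the hippocampus did not separate from the bulb (WT, adjusted p = 0.373) or the cortex (0.314).

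Of the 7 listed Kv7 and EAG-related genes, 4 (Kcnq5, Kcnh3, Kcnh5 and Kcnh7) were lower in the WT cerebellum. Kcnq5, which contributes to the slow M-current, had 0.402, 0.311 and 0.179 RPKM in KO and 0.519, 0.188 and 0.182 in WT cerebellum (log2 -5.12, SE 0.32, adjusted p = 1.18e-07). In the cortex it had 16.6, 16.1 and 17 in KO and 14.2, 16.4 and 14.8 in WT libraries, which overlapped with the hippocampus (WT neighbours, adjusted p = 0.806). Both regions were above the mean of the others, the cortex (log2 2.48, SE 0.2, adjusted p = 3.83e-06) and the hippocampus (log2 2.29, SE 0.2, adjusted p = 6.24e-06). Kcnh3, an ELK-type channel of forebrain neurons, had 1.07, 1.2 and 0.99 RPKM in KO and 0.965, 1.55 and 1.56 in WT cerebellum, against 14.5 to 43.1 elsewhere (log2 -4.29, SE 0.18, adjusted p = 1.81e-09). It was also higher in the bulb (log2 2.15, SE 0.12, adjusted p = 5.06e-08), without separating from the cortex (WT, edgeR, adjusted p = 0.090). Kcnh7 was highest in the cortex (log2 1.88, SE 0.22, adjusted p = 7.32e-05), without separating from the bulb (WT, edgeR, adjusted p = 0.0501). Kcnh5 passed in the cortex as well (log2 2.03, SE 0.52, adjusted p = 0.0115), without separating from the bulb (WT, edgeR, adjusted p = 0.763). It did not pass without WT cortex number 1 (log2 1.91, adjusted p = 0.0536) or number 3 (log2 1.69, adjusted p = 0.0708). Kcnh1 peaked in the cortex at 20.3 ± 2.15 RPKM in KO and 19.8 ± 0.244 in WT tissue. Kcnh2, the ERG channel gene better known from the heart, peaked in the bulb at 21.7 ± 2.35 and 22.4 ± 2.14.

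Among the inward rectifiers, Kcnj4, a Kir2 channel of forebrain neurons, gave the largest regional difference of the 41 genes. It had 0.607, 0.236 and 0.232 RPKM in KO and 0.557, 0.233 and 0.319 in WT cerebellum, 32, 27.3 and 28.9 in KO and 30.3, 30.7 and 28.6 in WT hippocampus, 76.3, 58.5 and 65.6 in KO and 69.5, 65.8 and 64.4 in WT cortex, and 100.2, 104 and 94 in KO and 88.7, 92.7 and 89.3 in WT bulb. The 4 regions formed 4 steps that did not overlap in either genotype, and each pair of WT neighbours in this order differed (adjusted p = 0.0239, 0.000196 and 3.57e-10 from the bulb down). The cerebellar difference was -7.29 on the log2 scale in KO and -7.27 in WT libraries (SE 0.26 and 0.19, adjusted p = 7.34e-10 and 4.78e-11). Cortex (log2 2.74, SE 0.11, adjusted p = 1.18e-08) and bulb (log2 3.33, SE 0.11, adjusted p = 8.6e-10) were above the mean of the others in WT tissue. Kcnj10, the potassium-buffering channel of astrocytes and oligodendrocytes, was above 37.2 RPKM in every library and highest in the bulb, at 94 ± 2.29 RPKM in KO and 85.8 ± 11.4 in WT tissue. For Kcnj10 the bulb did not separate from the cerebellum (WT, edgeR, adjusted p = 0.078). The 8 astrocyte markers summed to 3680 to 4161 CPM in the bulb against 4970 to 6747 CPM elsewhere, and the 8 oligodendrocyte markers to 2307 to 3089 CPM in the bulb against 4635 to 6788 CPM elsewhere. The part of these cells in the Kcnj10 levels was not tested.

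The listed G-protein-gated inward rectifiers, which answer to inhibitory neurotransmitter receptors, differed between regions in composition and less in their total. In the cerebellum that total was 76.4 ± 1.26 RPKM in KO and 72.8 ± 1.55 in WT tissue. In the bulb it was 54.4 ± 3.97 in KO and 52.4 ± 3.63 in WT tissue. Kcnj3 supplied 72.8 ± 1.64% of the summed level of Kcnj3, Kcnj6 and Kcnj9 in KO and 73.7 ± 1.16% in WT bulb, but 39.5 ± 0.801% in KO and 40.6 ± 1.9% in WT cortex. Kcnj9 supplied 23.4 ± 2.93% in KO and 22.2 ± 3.13% in WT bulb, and 54.4 ± 2.39% in KO and 55 ± 4.02% in WT cerebellum. Kcnj6 was the least abundant in each region and had its highest mean in the hippocampus, at 5.73 ± 2.03 RPKM in KO and 5.3 ± 1.81 in WT tissue. For Kcnj6 the hippocampus did not separate from the cortex (WT, edgeR, adjusted p = 0.51).

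Of the listed K2P leak channels, Kcnk1 made up 62.3 to 75% of their summed level in the group means. It was highest in the cerebellum, at 98.6 ± 3.07 RPKM in KO and 87.2 ± 5.48 in WT tissue. Kcnk3, an acid-sensitive leak channel known from cerebellar granule cells, had 24.2, 31.6 and 29.1 RPKM in KO and 31.9, 32.8 and 29.7 in WT cerebellum against 2.46 to 9.49 elsewhere. The groups did not overlap, and this was the largest cerebellar excess among the 41 genes in WT tissue (log2 2.46, SE 0.073, adjusted p = 9.94e-11), while in KO tissue that of Kcnt1 was larger (log2 2.3, beside 2.24 for Kcnk3). Kcnk3 was below the mean of the other 3 regions in the hippocampus (log2 -1.7, SE 0.09, adjusted p = 5.18e-08) and in the cortex (log2 -0.63, SE 0.084, adjusted p = 0.000103). Kcnk2, a mechanosensitive leak channel, peaked in the cortex at 15 ± 1.51 RPKM in KO and 15.1 ± 1.16 in WT tissue.

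The sodium-activated channel gene Kcnt1 had 59.3, 68.1 and 53.3 RPKM in KO and 41.5, 70.0 and 61.2 in WT cerebellum, against 3.78 to 23.8 elsewhere (log2 2.15, SE 0.22, adjusted p = 8.98e-06). It was lowest in the hippocampus (log2 -1.73, SE 0.27, adjusted p = 0.00048). Without the libraries rich in choroid plexus markers the log2 was -1.43, with 1 WT hippocampal library left, too few to judge the difference. Of the small-conductance calcium-activated genes, Kcnn2 led every region and was highest in the hippocampus, at 9.7 ± 0.87 RPKM in KO and 9.9 ± 0.436 in WT tissue. Kcnn1 had its highest means in cortex and hippocampus (4.36 ± 0.316 and 4.32 ± 0.258 RPKM in WT tissue), which did not separate (adjusted p = 0.960).

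Markers of cell types also differed between the regions. The 6 excitatory neuron markers summed to 6371 to 9015 CPM in hippocampus and 5491 to 7182 in cortex, against 1596 to 1821 in cerebellum and 1579 to 2012 in bulb, and the 7 inhibitory neuron markers to 2794 to 3037 CPM in bulb against 737 to 1591 in the other regions. Their part in the regional channel differences was not tested.

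Several genes that passed in no region had wide errors with a common pattern across the libraries. In the libraries numbered 2, of both genotypes and all 4 regions, Kcna2 was below its level in numbers 1 and 3. Kcna2, the partner of Kcna1 in axonal Kv1 channels, had 11, 0.585 and 10.1 RPKM in KO and 11.1, 0.632 and 11.3 in WT cerebellum for numbers 1, 2 and 3, 3.84, 0.0576 and 4.68 in KO and 4.37, 0.0969 and 5.16 in WT hippocampus, and 5.31, 0.0713 and 3.94 in KO and 5.08, 0.0558 and 4.51 in WT bulb. In the cortex the gap was smaller, with 6.64, 3.71 and 6.87 in KO and 5.35, 3.3 and 7.07 in WT libraries. Kcna3, a Kv1 subunit also known from immune cells, had 3.3, 1.04 and 3.56 RPKM in KO and 4.12, 0.618 and 4.35 in WT cortex, and 0 counts in the hippocampal libraries numbered 2 of both genotypes, which allows up to 0.0541 RPKM in KO and 0.0587 RPKM in WT tissue (3 counts each, counting error only).

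Expressed as the mean log2 difference between number 2 and the mean of numbers 1 and 3 over the 8 groups (CPM plus 0.1), the value was -4.21 for Kcna2, -3.92 for Kcna3, -2.57 for the M-current gene Kcnq3 and -2.18 for the leak channel gene Kcnk9. It was -2.13 for Kcnma1, the large-conductance calcium-activated (BK) channel gene, -1.76 for Kcnn3, -1.47 for Kcnh5 and -1.19 for Kcnb2. All 8 genes were lower in all 8 groups. These 8 of 41 genes (19.5%) lay below -1, beside 216 of 14437 genes (1.5%) with at least 1 CPM on average, and 0 of the 41 genes lay above 1. The median over the 41 genes was -0.09. Most of the 8 have long transcripts (10451 to 16976 merged exon bases for Kcna2, Kcnq3, Kcnk9, Kcnma1, Kcnn3 and Kcnb2), yet Kcna3 has 1902 and Kcnh5 4058. Spearman's rho with exon length was -0.41 over the 41 genes and -0.26 over all these genes, given as a description, since the genes share the same libraries. The part of RNA quality in this pattern was not tested. Each region held 1 such library in KO and 1 in WT tissue.

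**Figure D3:**
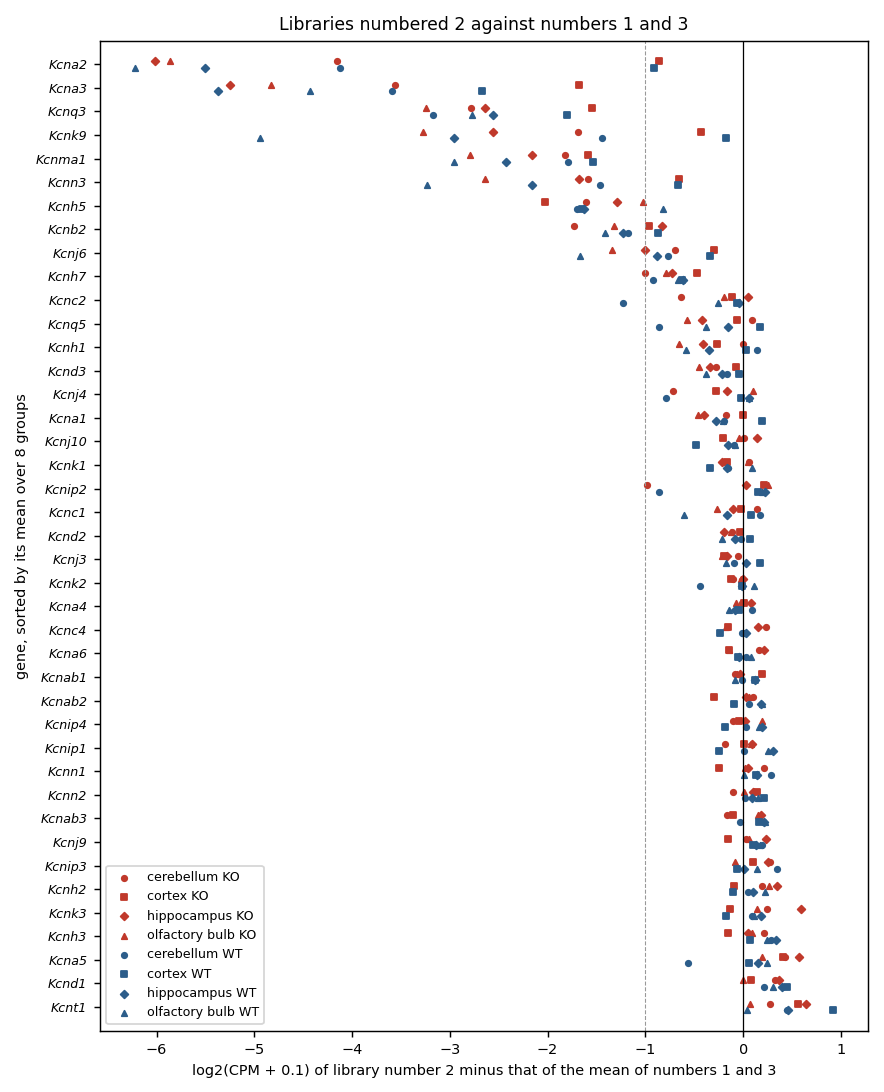
For each of the 41 genes, the log2(CPM + 0.1) of the library numbered 2 minus that of the mean of numbers 1 and 3, with one point per region and genotype (red for KO, blue for WT). The 8 genes at the top lie below the dashed line at -1 on average, with KO and WT points side by side, and most others scatter around 0.

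Without the libraries numbered 2, an alternative chosen after seeing the data, several of these genes passed in WT tissue with 2 libraries a region. Kcna2 was above the mean of the other 3 regions in the cerebellum (log2 1.1, adjusted p = 6.36e-05) and Kcnq3 below it (log2 -1.69, adjusted p = 5.22e-05). In the cortex Kcnq3 (log2 1.67, adjusted p = 5.61e-05) and Kcna3 (log2 1.12, adjusted p = 0.00122) were higher. Kcnma1 was lower in the bulb (log2 -0.67, adjusted p = 0.00125). The number of channel genes that differed was then 30, 31, 24 and 31 in WT cerebellum, cortex, hippocampus and bulb, beside 52.5%, 45.1%, 29.2% and 42.7% of all genes tested in that fit.

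Whether loss of Cdr1as moved these genes was tested in each region and over the average of the 4 regions. In the edgeR test 0 of the 41 channel genes differed between KO and WT tissue in the cerebellum (0% of all 15723 genes tested), the cortex (0.0379%), the hippocampus (0%) and the bulb (0%), and 0 differed on average over the regions, where 462 of 17266 genes (2.68%) did. At an unadjusted p under 0.05 there were 0, 2, 1 and 2 channel genes in the 4 regions and 1 on average (2.44%). The shares of all genes were 5.48%, 4.2%, 5.16% and 5.33% in the regions and 14% on average. DESeq2 and limma-voom also called 0 channel genes in each. Over all genes DESeq2 called 50, 102, 37 and 66 in the regions and 790 on average, and limma-voom 0, 6, 0, 0 and 474. The median log2 of the 41 genes was 0.0047 in the cerebellum, 0.03 in the cortex, -0.03 in the hippocampus and 0.07 in the bulb, and 0.03 on average, beside -0.0012 for all genes on average. The direction was mixed, with 25 genes above and 16 below 0 on average. A difference in the knockout effect between the regions was called for 0 channel genes in edgeR (0.0232% of all genes). There were 2 (4.88%) at an unadjusted p under 0.05, beside 2.54% of all genes. DESeq2 called 1 channel gene, Kcna4, and more genes in all than edgeR did, as given in the last section.

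The intervals say how large an effect these libraries could have missed if all 24 are taken as independent. Across regions, libraries of equal number correlated at 0.153 to 0.721 in WT and -0.022 to 0.775 in KO tissue. The intervals take no account of that correlation. With libraries of 1 genotype and number taken as correlated (limma-voom), 108 of 17266 genes passed on average, against 474 in limma-voom without it. On average over the regions the 95% interval lay within ±0.5 on the log2 scale, a 1.41-fold change either way, for 32 of the 41 genes. The exceptions were Kcna2, Kcna3, Kcnb2, Kcnh5, Kcnj6, Kcnk9, Kcnma1, Kcnn3 and Kcnq3, which are the 8 genes lowest in the libraries numbered 2 and Kcnj6 (-0.87 there), and the widest interval was that of Kcna2 (-1.6 to 1.52). Without those libraries the 9 average values lay between -0.17 and 0.18, and 0 of them passed. Within single regions 24 to 29 of the 41 intervals stayed within ±0.5.

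**Figure D4:**
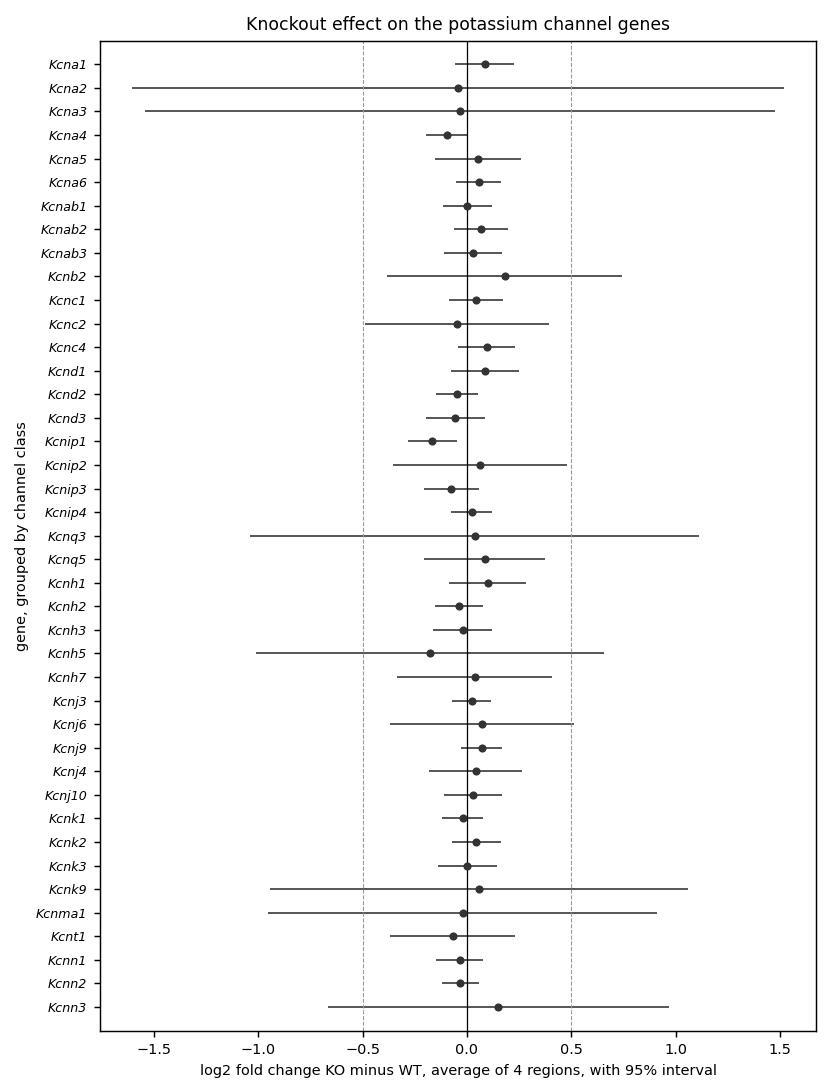
Log2 fold change of KO over WT, averaged over the 4 regions, for each of the 41 genes with its 95% interval (edgeR, 24 libraries; dashed lines at ±0.5). All points lie between -0.18 and 0.18, 32 intervals stay within the dashed lines, and only that of Kcnip1 (-0.28 to -0.047) leaves out 0.

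The gene nearest to a call on average was Kcnip1 (log2 -0.17, SE 0.057, 95% interval -0.28 to -0.047, p = 0.00848, adjusted p = 0.145, edgeR, n = 24 libraries). It had 3.83, 4.04 and 4.22 RPKM in KO and 5.11, 4.44 and 5.44 RPKM in WT cortex, 2.27, 2.84 and 3.08 in KO and 2.94, 3.89 and 3.35 in WT hippocampus, 11, 12.3 and 12.2 in KO and 12.1, 14.3 and 12 in WT bulb, and 11.1, 9.36 and 10.3 in KO and 9.7, 9.73 and 9.65 in WT cerebellum. The cortical groups did not overlap, the hippocampal and bulb groups overlapped with lower KO means, and the cerebellar KO libraries lay on both sides of the WT ones. With the replicate number as a block Kcnip1 passed on average (log2 -0.17, adjusted p = 0.0214), and over all other alternatives it did not. Beside this, the 7 inhibitory neuron markers summed to 737 to 808 CPM in KO and 839 to 866 CPM in WT hippocampus, and to 1089 to 1180 CPM in KO and 1145 to 1332 CPM in WT cortex. All 7 markers had a log2 below 0 in both regions, and 0 of 7 passed. In the bulb the sums overlapped (2794 to 2978 CPM in KO and 2806 to 3037 CPM in WT), with 4 markers above and 3 below 0. In the cerebellum they overlapped as well (1422 to 1591 CPM in KO and 1444 to 1525 CPM in WT). There 2 of 6 tested markers were above and 4 below 0. Over the 24 libraries the lowest value of Vip was 0 CPM. The 6 olfactory bulb markers summed to 21.8 to 22.5 CPM in KO and 38.1 to 68.1 CPM in WT cortex, without overlap, with all 6 below 0 and 0 of 6 passing. In the cerebellum they summed to 71.8 to 99.6 CPM in KO and 32.1 to 43.2 CPM in WT libraries. The part of these lists in the Kcnip1 values was not tested. The related Kcnip3 had 33.1, 39.2 and 39.7 RPKM in KO and 44.5, 42.3 and 44 in WT cortex, groups that did not overlap (log2 -0.23, SE 0.095, adjusted p = 0.9998).

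Kcna4 stood out by opposite values. In the hippocampus it had 5.09, 5.65 and 5.58 RPKM in KO and 7.0, 6.7 and 7.16 in WT libraries (log2 -0.36, SE 0.081, 95% interval -0.55 to -0.17, adjusted p = 0.954). In the bulb it had 13.2, 12.9 and 14 in KO and 12.2, 10.6 and 11.2 in WT libraries (log2 0.22, SE 0.089, 95% interval 0.0087 to 0.43, adjusted p = 0.934). The groups did not overlap in either region, lower in KO hippocampus and higher in KO bulb. The difference of its effect between the regions did not pass in edgeR (n = 24 libraries, p = 0.00223, adjusted p = 0.857) and passed in DESeq2 (adjusted p = 0.0255). Without the libraries rich in choroid plexus markers the hippocampal log2 was -0.3, with 1 WT library left. The 6 thalamic markers summed to 191 CPM in KO hippocampus number 2 against 64.7 to 80.6 CPM in the other hippocampal libraries, and without that library the log2 was -0.38. Both settings were chosen after seeing the data. In the bulb the deeper libraries were the KO ones, and the part of depth was not tested.

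Kcnk1 had 95.4, 101 and 98.8 RPKM in KO and 90.7, 80.9 and 90.1 in WT cerebellum (log2 0.17, SE 0.08, adjusted p = 0.931), and 29.2, 29.4 and 27.6 in KO and 32.9, 34 and 31.1 in WT bulb (log2 -0.2, SE 0.059, adjusted p = 0.812). Again the groups did not overlap, with KO above WT in the cerebellum and below it in the bulb, and neither value passed. Kcnj4 in the bulb had higher KO libraries without overlap (94 to 104 RPKM in KO against 88.7 to 92.7 in WT, log2 0.12, SE 0.062, adjusted p = 0.956). Over all channel genes the KO and WT groups did not overlap for 1 of 40 genes with at least 1 CPM in the cerebellum, 3 of 41 in the cortex, 1 of 41 in the hippocampus and 4 of 41 in the bulb, beside 11.2%, 9.14%, 10.5% and 10.4% of all such genes. Each of these shares is below the background.

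The other genes with the smallest p between KO and WT tissue did not pass in edgeR either. In the cerebellum they were Kcnh3 (log2 -0.33), Kcnd2 (-0.19), Kcnip4 (0.16) and Kcnn1 (-0.19), with adjusted p-values of 0.989 to 0.9998. In the cortex they were Kcnip4 (log2 -0.2), Kcnk3 (0.18) and Kcnab3 (0.13), beside Kcnip1 (log2 -0.32, SE 0.11, adjusted p = 0.864). In the hippocampus they were Kcnip1 (log2 -0.32, SE 0.15, adjusted p = 0.982), Kcnip2 (log2 0.16), Kcnip3 (-0.15) and Kcnt1 (-0.38). In the bulb they were Kcnd1 (log2 0.24) and Kcnip4 (0.16). On average over the regions Kcna4 (log2 -0.1, SE 0.048, adjusted p = 0.396), Kcnj9 (log2 0.07), Kcnc4 (0.094) and Kcna1 (0.084) followed Kcnip1. For Kcnip4 the difference of the effect between regions did not pass (n = 24 libraries, p = 0.0323, adjusted p = 1).

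**Figure D5:**
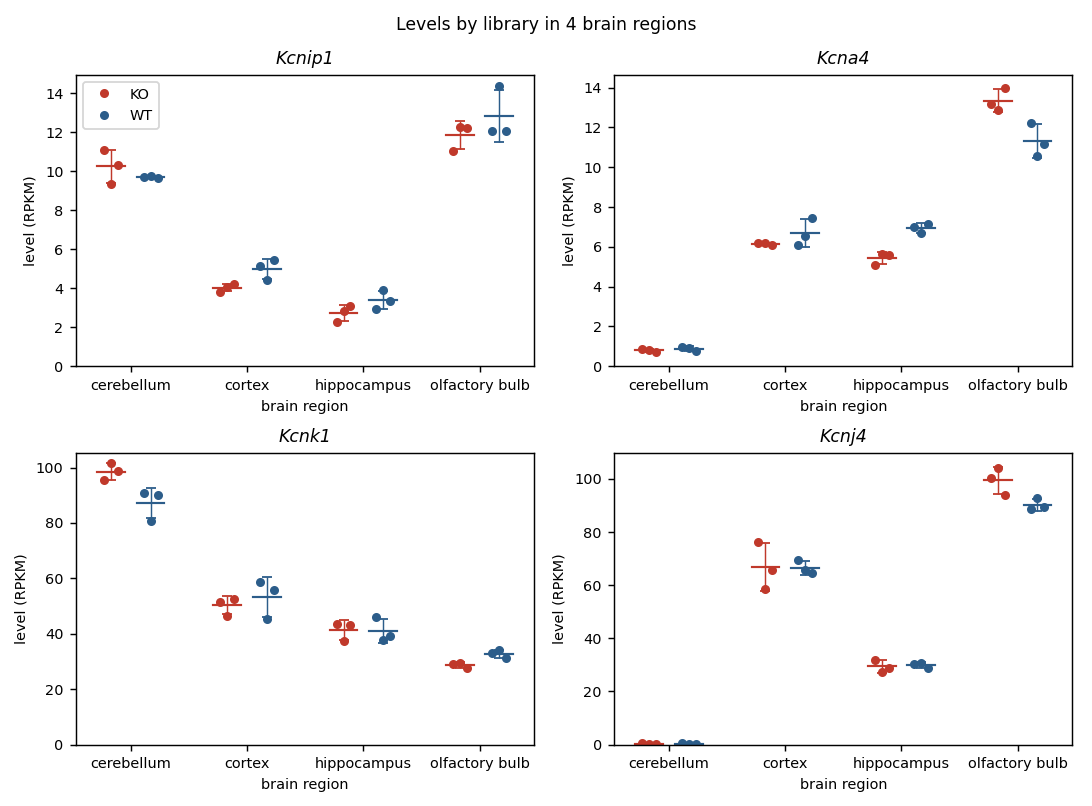
Levels of Kcnip1, Kcna4, Kcnk1 and Kcnj4 in RPKM by region, with KO (red) left of WT (blue); points are libraries, horizontal lines means and bars ± SD (n = 3). Kcna4 lies lower in KO than in WT hippocampus (5.09 to 5.65 against 6.70 to 7.16) and higher in KO than in WT bulb (12.9 to 14 against 10.6 to 12.2), and the regional steps of Kcnj4 are far larger than any KO and WT difference.

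Because Cdr1as carries many miR-7 sites, the 3′ untranslated regions (UTRs) of the channel genes were searched for matches to the miR-7 seed, bases 2 to 8 of the mature microRNA, in capitals here (RefSeq, GRCm38.p6, written 5′ to 3′). Both mouse forms share that seed. The first lies at chr7:78888295-78888317 on the plus strand and the second at chr17:56243017-56243040 on the plus strand.
mmu-miR-7a-5p: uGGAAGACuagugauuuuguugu
mmu-miR-7b-5p: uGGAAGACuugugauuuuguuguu

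Of the 41 channel genes 8 (19.5%) had at least 1 match of bases 2 to 8 (GTCTTCC in the UTR, sense strand only), beside 2423 of 19754 genes with a UTR (12.27%). The longest UTR of each gene was searched, and those of the 8 genes had 899 to 12121 bases. A longer UTR has more positions for a match, and the shares were not adjusted for length. A match with an added A opposite the first base of the microRNA was found in 2 of the 41 (4.88%), beside 719 genes (3.64%). Those 2 genes were Kcnab2 and Kcnq3, and the other 6 were Kcnab3, Kcnb2, Kcnd3, Kcnh7, Kcnj10 and Kcnq5. The sites of the 2 longer matches and of 3 well-expressed genes are shown, as DNA with the match in capitals (GENCODE annotation, GRCm38). They lie at chr4:152391252-152391274 (minus strand, Kcnab2, base 1776 of a 2293-base UTR), chr15:65992397-65992419 (minus strand, Kcnq3), chr1:172371918-172371939 (plus strand, Kcnj10), chr11:69332934-69332955 (plus strand, Kcnab3) and chr3:105671267-105671288 (plus strand, Kcnd3).
Kcnab2: tgtttctgagaggttGTCTTCCA
Kcnq3: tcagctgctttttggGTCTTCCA
Kcnj10: agtctttttacgttgGTCTTCC
Kcnab3: cagatgacttcagtcGTCTTCC
Kcnd3: aagaagtagaaaaggGTCTTCC

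The average KO effect of these 8 genes had a median log2 of 0.04 and ranged from -0.06 to 0.18, with 7 of 8 above 0, and the 33 genes without a match had a median of 0.002 and a range of -0.18 to 0.15, with 18 of 33 above 0. None of the 8 passed: Kcnab2 was at 0.068 (95% interval -0.06 to 0.20), Kcnj10 at 0.028 (-0.11 to 0.17), Kcnab3 at 0.03 (-0.11 to 0.17) and Kcnd3 at -0.055 (-0.20 to 0.09). Kcnq3, with 2 matches, was at 0.037 with an interval of -1.04 to 1.11 that is too wide to place its effect. A match in these letters is a description and says nothing of binding.

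Other potassium channel genes, a list of 60 further symbols of which 48 were tested in the regional comparisons, also differed between regions. In WT tissue 12 were higher and 25 lower in the cerebellum, 22 and 10 in the cortex, 14 and 15 in the hippocampus, and 19 and 15 in the bulb, beside the all-gene shares of 27.5% and 26.9%, 21.8% and 17.6%, 17.7% and 15.3%, and 22% and 21.6% given above. Kcng4, a modifier subunit of Kv2 channels, had 54.1 ± 2.24 RPKM in KO and 55.3 ± 4.2 in WT cerebellum against group means of 2.29 to 2.80 elsewhere (log2 4.51, SE 0.089, adjusted p = 4.37e-12). Kcnv1, another modifier subunit, had 24.7 ± 3.28 RPKM in KO and 29.9 ± 3.55 in WT cortex (log2 4.34, SE 0.23, adjusted p = 1.22e-07) and was lower in the cerebellum (log2 -7.59, SE 0.41, adjusted p = 3.94e-08). Kcng4 was below the mean of the other 3 regions in the cortex (log2 -1.5), a mean that includes the cerebellum. Its WT levels were 2.42 RPKM in cortex, 2.57 in hippocampus and 2.29 in bulb. Kcns3, a further modifier subunit, was lower in the bulb (log2 -3.06). Kcng1, also a modifier subunit, was above the mean of the other 3 regions in the hippocampus (log2 3.29, SE 0.14, adjusted p = 1.2e-08), with 11.6 ± 2.55 RPKM in KO and 11.5 ± 1.84 in WT tissue, and in the cortex (log2 2.82, SE 0.14, adjusted p = 5.49e-08), with 12.1 ± 1.03 in KO and 9 ± 1.67 in WT tissue. Its levels were far lower in the bulb (2.75 ± 0.615 in KO and 1.76 ± 0.25 in WT) and the cerebellum (0.11 ± 0.0384 in KO and 0.103 ± 0.0376 in WT). The K2P gene Kcnk15 was higher in the bulb, with 4.64 ± 0.311 RPKM in KO and 4.93 ± 0.487 in WT tissue, against group means of 0.00571 to 0.119 elsewhere (adjusted p = 8.98e-08). The hippocampal libraries were near 0, so its fitted fold changes are not given. Between KO and WT tissue 0 of these genes passed in any region or on average in edgeR, with 11 of 48 (22.9%) at an unadjusted p under 0.05 on average beside 14% of all genes. Kcnj13, an inward rectifier known from choroid plexus (average log2 -1.59, SE 0.54, adjusted p = 0.149), was among those that did not pass, and the part of the uneven choroid plexus content in it was not tested.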

How the data were processed

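The deposited files hold raw gene counts, 1 library per file. Per the submitters' processing notes, the authors used bcl2fastq 2.17.1.14, STAR 2.5.1b and HTSeq 0.6.1p1 with build mm9, so the counts are unnormalized reads per Ensembl gene. Per the labels' protocols the RNA was TRIzol-extracted and the libraries were made with a TruSeq Stranded mRNA kit, while the strand setting of the counting is not given in the sources used here. HTSeq summary lines stayed out of library sizes and tests: reads assigned to no feature were 8.22 to 16.8% and ambiguous reads 0.576 to 0.764%. Gene IDs were matched to symbols and exon lengths with a GRCm38 annotation, for 32897 of 37621 IDs.

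Counts were fitted with edgeR 4.0.16 (R 4.3.3; filterByExpr, TMM scaling, quasi-likelihood F test, Benjamini-Hochberg over all genes tested, adjusted p under 0.05). KO and WT were compared within each region from that region's libraries and on average over the regions from all 24, and regions within each genotype. DESeq2 1.42.0, limma-voom (limma 3.58.1), other scalings and filters, a replicate block and leaving out libraries were alternatives. SEs are the log2 value divided by the root of F. The fits were tested on simulated data. RPKM divides counts by merged exon length and by TMM-scaled depth. The rule named, with statistics, up to 4 genes per direction with the largest regional log2 among those past the threshold, the 5 with the smallest p between KO and WT, and the 6 highest and 3 lowest levels; any other gene of the list could be named. The members and lists were chosen with earlier results of these data known.

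Deviations from the group means were correlated between KO and WT libraries of a region. For equal replicate numbers the values were 0.277 to 0.792 in cerebellum, 0.4 to 0.662 in hippocampus and 0.368 to 0.843 in bulb. In cortex they were -0.029 to 0.74. Unequal numbers reached 0.335, 0.413, 0.498 and 0.591 in this order, above the lowest equal pair of each region. The highest value of each region was that between the libraries numbered 2. Equal numbers thus did not set every pair apart within a region. Across regions, equal numbers had 0.153 to 0.721 in WT libraries, against -0.587 to 0.249 for unequal numbers, so these ranges overlapped as well. In KO libraries equal numbers had -0.022 to 0.775, against -0.665 to 0.441 for unequal numbers. No 2 libraries of a group agreed within sampling noise (chi-square per degree of freedom 6.97 to 60 over 24 pairs).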

Additional observations from a re-analysis of the deposited data

Results flagged for a closer look

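Kcna4, which gives fast-inactivating Kv1 current, was lower in all 3 KO than in all 3 WT libraries of the hippocampus (5.09 to 5.65 against 6.7 to 7.16 RPKM) and higher in all 3 KO than in all 3 WT libraries of the bulb (12.9 to 14 against 10.6 to 12.2 RPKM). The test of a difference of the knockout effect over the 4 regions (n = 24 libraries) gave p = 0.00223 in edgeR, with an adjusted p of 0.857, and an adjusted p of 0.0255 in DESeq2. Kcna4 was flagged for its opposite separations, so this test uses the values that flagged it and is no separate support. KO and WT groups did not overlap for 1 of 40 channel genes in the cerebellum, 3 of 41 in the cortex, 1 of 41 in the hippocampus and 4 of 41 in the bulb. Over all such genes the shares were 11.2%, 9.14%, 10.5% and 10.4%. Without the libraries rich in choroid plexus markers the hippocampal log2 was -0.3, against -0.36 with them.

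Kcnk1, the most abundant listed K2P gene, was higher in all 3 KO cerebellar libraries (95.4 to 101 against 80.9 to 90.7 RPKM in WT). In the bulb it was lower in all 3 KO libraries (27.6 to 29.4 against 31.1 to 34 RPKM in WT). The edgeR test of a difference of the knockout effect over the 4 regions (n = 24 libraries) gave p = 0.0743 and did not pass.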

How the results depend on the processing

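No result compared across the alternatives changed direction. The counts of channel genes that differed between KO and WT tissue moved in 2 settings: the difference of the knockout effect between regions was called for 1 gene, Kcna4 (adjusted p = 0.0255), under DESeq2, which called 40 genes in all against 4 in edgeR, and the average over the regions for 1 gene, Kcnip1 (log2 -0.17, adjusted p = 0.0214), with the replicate block, which called 1256 genes in all against 462. Over the 39 alternatives the average log2 of Kcnip1 ranged from -0.25 to -0.11 with an adjusted p of 0.0214 to 0.643; it was -0.11 without the cortex and -0.25 without the cerebellum, and the adjusted p was 0.307 without the choroid-rich libraries and 0.338 without the libraries numbered 2, both settings chosen after seeing the data. The block changed the call of no other channel gene between KO and WT. Without 1 library at a time the channel genes that differed between regions in WT tissue numbered 25 to 28 in cerebellum, 23 to 27 in cortex, 21 to 24 in hippocampus and 22 to 28 in bulb. With the block they numbered 32, 34, 29 and 30, and without the choroid-rich libraries 24, 24, 17 and 26. The shares of all genes under these settings are not given here. A rise or fall in these counts is therefore not a result about channel genes. Kcnh5 in cortex and Kcnc2 in hippocampus lost their calls in the settings named with their values. Without the choroid-rich libraries 1 WT hippocampal library was left, so the value of Kcnt1 there rests on it. Levels per length rest on the annotation: with the longest transcript Kcnt1 ranked 9 in place of 13 among the 41, Kcnab1 15 in place of 19, Kcnn2 21 in place of 27, Kcnj6 28 in place of 33 and Kcnj3 13 in place of 9. Depth limits the sparse genes, and wide intervals limit those low in the libraries numbered 2.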
